A study of Mus musculus with 12 samples.

Results

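The comparison described here set the striatum of R6/2 mice against that of wild type (WT) mice when both had received a control adeno-associated virus (AAV). It used 6 of the 12 small RNA libraries of the series, 3 of R6/2 and 3 of WT, chosen by their labels. A total of 1915 mature miRNA names stood in the deposited tables, and the 660 that passed the expression filter were tested.

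The series crossed the 2 genotypes with 2 viruses, one carrying a control short hairpin RNA and the other a hairpin against TRAX (shTRAX). R6/2 mice, the line B6CBA-Tg(HDexon1)62Gpb/3J, carry exon 1 of the human huntingtin gene with an expanded CAG repeat behind the human promoter, and they keep their own mouse huntingtin alleles. They were bred to B6CBAFI/J females, the strain given in the labels of both groups, and the WT group carries no transgene. Mice of every group had surgery, with virus placed on both sides of the striatum at 5 weeks, and tissue was taken at 10.5 weeks of age. No source used here names the serotype or the promoter of the virus. The transgene itself is not measured by miRNA counts, so the genotype labels were not checked. The labels do not say that the 3 libraries of a group came from separate mice, and the p-values below measure only the spread between these libraries.

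Huntington's disease is caused by an expanded CAG repeat in the huntingtin gene and strikes the projection neurons of the striatum first. A miRNA is cut from a hairpin, leaving a 5p or a 3p arm as the mature strand, and it represses mRNAs that pair with its seed. Several brain miRNA genes are induced by neuronal activity through the factor CREB or silenced by the repressor REST, and both factors are known to be disturbed by mutant huntingtin.

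The sequences of the lower miRNAs that carry the comparison come from RefSeq (GRCm38), with the seed, bases 2 to 8, in capitals. miR-132-3p (chr11:75173723-75173744) and miR-212-3p (chr11:75173443-75173464) lie on the plus strand in neighbouring hairpins within an intron of 1700016P03Rik, and they are shown because they fell most among miRNAs above 100 CPM and share a seed. miR-221-3p (chrX:19146307-19146329) and miR-222-3p (chrX:19146901-19146923) are a second neighbouring pair with a common seed, on the minus strand. The miR-344 sequences are shown because all tested members of that rodent family stood below 0. They lie on the minus strand of chromosome 7, miR-344-3p at chr7:61940036-61940058, miR-344c-3p at chr7:61837323-61837345, miR-344b-3p at chr7:61790522-61790543 and miR-344d-3p at chr7:61683127-61683148.
miR-132-3p: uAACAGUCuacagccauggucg
miR-212-3p: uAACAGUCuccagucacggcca
miR-221-3p: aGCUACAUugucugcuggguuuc
miR-222-3p: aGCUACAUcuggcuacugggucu
miR-344-3p: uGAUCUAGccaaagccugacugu
miR-344c-3p: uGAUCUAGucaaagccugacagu
miR-344b-3p: cAUUUAGCcaaagccugacugu
miR-344d-3p: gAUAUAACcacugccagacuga
miR-132-3p and miR-212-3p differ at 5 of 22 bases, none of them in the seed. miR-344-3p and miR-344c-3p share a seed and differ at 2 of 23 bases, while miR-344b-3p and miR-344d-3p have other seeds.

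Families with a common seed and higher members are shown next, because each has members at more than 1 place in the genome. miR-29a-3p, which did not pass, is shown beside its family. The miR-29 members lie at chr6:31062673-31062694 (miR-29a-3p, minus strand), chr1:195037091-195037113 (miR-29b-3p, plus strand) and chr1:195037600-195037621 (miR-29c-3p, plus strand). The miR-130 and miR-301 members lie at chr2:84741116-84741137 (miR-130a-3p, minus strand), chr16:17124071-17124092 (miR-130b-3p, minus strand) and chr11:87113054-87113076 (miR-301a-3p, plus strand). miR-497a-5p (chr11:70234730-70234751) and miR-195a-5p (chr11:70235062-70235082) share 1 locus on the plus strand, and miR-16-5p (chr14:61631936-61631957, minus strand) has the same seed.
miR-29a-3p: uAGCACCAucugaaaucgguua
miR-29b-3p: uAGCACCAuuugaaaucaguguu
miR-29c-3p: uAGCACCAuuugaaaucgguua
miR-130a-3p: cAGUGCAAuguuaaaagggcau
miR-130b-3p: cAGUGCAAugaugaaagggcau
miR-301a-3p: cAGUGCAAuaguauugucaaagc
miR-497a-5p: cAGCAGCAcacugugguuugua
miR-195a-5p: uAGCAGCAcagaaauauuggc
miR-16-5p: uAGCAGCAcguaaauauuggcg
miR-29a-3p and miR-29c-3p differ at 1 of 22 bases, and reads with an error at that base could be counted for either.

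The 6 libraries held 13849784 to 16907909 mature miRNA counts each, and 1033 to 1084 miRNAs had at least 1 count. Levels are given as CPM, the count scaled to a common library total after TMM scaling, and they compare libraries for 1 miRNA, not miRNAs with each other. Neuron-enriched miRNAs made up 298660 to 312260 CPM in WT and 308400 to 330730 CPM in R6/2. Markers of hindbrain and spinal cord, the miRNAs of the Hox clusters, summed to 10.6 to 38.4 CPM, with 4 of 11 names at 0 in all 6 libraries. The first principal component held 59.6% of the variance and parted the genotypes. Each library's log2 deviation was set against the GC content of 540 miRNAs with a known sequence. The Spearman rho was -0.20 to -0.06 in the R6/2 libraries and 0.05 to 0.25 in the WT libraries, as a description over miRNAs that share these libraries. The 2 genotypes also stand in separate deposited tables, so that genotype and any difference between tables or runs cannot be told apart.

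R6/2 and WT striatum differed in 35.2% of the tested miRNAs, and most of these differences were small. The higher miRNAs were led by a repeat cluster in an intron of Sfmbt2 and the lower ones by the activity-induced pair miR-132 and miR-212. With edgeR's quasi-likelihood test and a Benjamini-Hochberg adjusted p under 0.05, 129 of 660 miRNAs were higher in R6/2 (19.5%) and 103 were lower (15.6%). Of the 232, 100 had a log2 fold change below 0.5 in size, 41 of the higher and 18 of the lower ones passed a 2-fold change, and all but 6 of those 41 belonged to the miR-297, miR-466, miR-467 and miR-669 families of the Sfmbt2 cluster. The groups did not overlap for 230 of the 232, which adds little to the calls with 3 libraries per group. Some miRNAs that were not called were also apart, and the share over all tested miRNAs was not counted. Among them were let-7d-5p, miR-107-3p and miR-127-5p (edgeR adjusted p = 0.0682, 0.346 and 0.33). Groups said below to be apart are therefore described, and this is no added support for a call. Scaled by total count alone, the split turned to 103 higher and 135 lower, with 206 of the 232 still past the threshold, and no call changed its sign under any alternative. The fit over all 12 libraries called 73, and leaving out R6/2 shTRAX replicate 3, which is in neither group, brought that to 210.

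**Figure D1:**
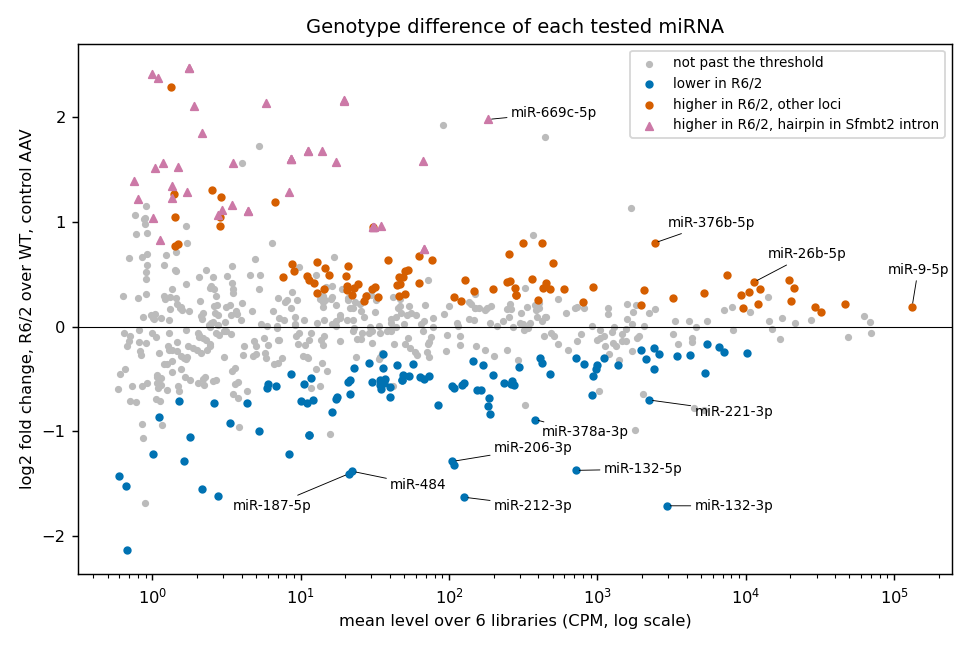
Each point is 1 of 660 tested miRNAs, with its mean level over the 6 libraries in CPM on a log axis and its log2 fold change of R6/2 over WT. Blue points are the 103 lower calls, orange points and pink triangles the 129 higher calls, the triangles with a hairpin in the Sfmbt2 intron, and grey points did not pass. The triangles fill the top of the plot at low levels, and miR-132-3p is the lowest of the abundant miRNAs.

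All 4 arms of the miR-132 and miR-212 locus fell in R6/2, and no other miRNA with a mean above 100 CPM fell as far. The locus is a target of CREB and follows neuronal activity, and miR-132 is known to shape dendrites and synapses. miR-132-3p, the dominant arm, stood at 4429, 4940 and 4101 CPM in WT replicates 1, 2 and 3 and at 1498, 1301 and 1314 CPM in R6/2. Every R6/2 library was below every WT library, and the lowest WT value was above the highest R6/2 value by more than the spread within either group. The level in WT was 3.27-fold that in R6/2 (log2 fold change -1.71 ± 0.09, edgeR adjusted p = 1.87e-05). miR-212-3p stood at 190.4, 204 and 181 CPM in WT and at 63.5, 60.1 and 62.4 CPM in R6/2. Its groups were as far apart, with a log2 fold change of -1.63 ± 0.08 (edgeR adjusted p = 1.38e-05). The less abundant arms moved the same way. miR-132-5p was at 943, 1168 and 979.9 CPM in WT and 451, 359 and 383 CPM in R6/2 (-1.37 ± 0.12), and miR-212-5p was at 145, 169 and 149 CPM against 70.4, 54.3 and 60.2 CPM (-1.32 ± 0.11). Both passed, and neither pair of groups overlapped. In bulk tissue, fewer cells of a type and less RNA per cell cannot be told apart, here and in the results that follow.

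The other pair with a common seed, miR-221 and miR-222, fell less. These miRNAs are known to repress the cell cycle inhibitor p27. miR-221-3p stood at 2676, 2933 and 2671 CPM in WT and at 1740.0, 1629 and 1723 CPM in R6/2, a log2 fold change of -0.70 ± 0.06 (edgeR adjusted p = 0.000146). miR-222-3p was at 544, 579.7 and 542 CPM in WT and 398, 408 and 409 CPM in R6/2, a log2 fold change of -0.46 ± 0.06 (edgeR adjusted p = 0.00156). The groups of both were apart. The minor arms miR-221-5p (-0.50 ± 0.09) and miR-222-5p (-0.82 ± 0.11) fell as well, so that all 4 arms of this locus passed.

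The miR-344 family is a rodent family with hairpins in a cluster on chromosome 7, and its roles are little known. All 9 tested members stood below 0, with a median log2 fold change of -0.64 against 0.03 over all tested miRNAs, and 4 passed. miR-344d-3p was at 253, 228 and 241 CPM in WT and 131, 141 and 131 CPM in R6/2 (-0.84 ± 0.07, edgeR adjusted p = 0.000146). miR-344b-3p was at 238, 229.7 and 221.6 CPM in WT and 140.5, 150.1 and 140.4 CPM in R6/2 (-0.68 ± 0.07). The most abundant member, miR-344-3p, went from 1081 ± 19.4 to 778 ± 47.1 CPM (SD, n = 3 per group), a smaller change of -0.48 ± 0.07. miR-344c-3p, with the same seed as miR-344-3p, fell by 0.64 on the log2 scale. The summed level of the family was 1565 to 1603 CPM in WT and 1045 to 1130 CPM in R6/2, and the groups of all 4 were apart.

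miR-378a-3p, cut from an intron of Ppargc1b and known as a regulator of energy metabolism, was at 475, 503 and 501 CPM in WT and at 279, 259 and 260.5 CPM in R6/2. No R6/2 library came near a WT library, and the log2 fold change was -0.89 ± 0.07 (edgeR adjusted p = 8.87e-05). Its minor arm miR-378a-5p fell by 0.48 on the log2 scale. The related miR-378b (-0.67 ± 0.12), miR-378c (-0.75 ± 0.08) and miR-378d (-1.04 ± 0.18) fell too, from chr11:88352839-88352858 (plus strand), chr14:46954905-46954925 and chr10:126710355-126710376 (both minus strand). Their sequences are close, and they are shown with their seeds because reads of 1 may be counted for another, which makes these 3 uncertain as separate results.
miR-378b: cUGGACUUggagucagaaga
miR-378c: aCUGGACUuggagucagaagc
miR-378d: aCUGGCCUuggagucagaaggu
miR-378c and miR-378d differ at 2 of the 21 bases compared.

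miR-22-3p, from an exon of Tlcd2 and reported as protective in cell models of Huntington's disease, was at 1146, 1086 and 1127 CPM in WT and 756, 725 and 654 CPM in R6/2. The groups were apart, with a log2 fold change of -0.65 ± 0.07 (edgeR adjusted p = 0.000492). The partner arm miR-22-5p fell by 0.46. miR-484 was at 34.3, 31.4 and 31.1 CPM in WT and 12.6, 10.2 and 14.3 CPM in R6/2 (-1.38 ± 0.13, edgeR adjusted p = 0.000164). miR-187-5p was at 30.8, 31.2 and 30.2 CPM in WT and 13.04, 10.77 and 10.97 CPM in R6/2, a change of -1.41 ± 0.10 (edgeR adjusted p = 8.01e-05). For miR-484 and miR-187-5p too, every R6/2 library was below every WT library. The abundant arm of the second hairpin, miR-187-3p, did not pass, at 1972 ± 68.3 CPM in WT and 1850.0 ± 88.5 CPM in R6/2 (-0.09 ± 0.06, edgeR adjusted p = 0.268). miR-425-5p (-0.76 ± 0.10) and miR-138-1-3p (-0.57 ± 0.07) completed the lower miRNAs with the smallest p.

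miR-206-3p, best known from skeletal muscle, was at 149, 165 and 134 CPM in WT and 65.5, 57.6 and 60.7 CPM in R6/2. Each WT library held more than any R6/2 library (log2 fold change -1.29 ± 0.10, edgeR adjusted p = 8.32e-05). Its neighbour miR-133b-3p, from another exon of the same noncoding host Gm28653 on chromosome 1, fell from 15.3 ± 2.43 to 7.46 ± 0.885 CPM (-1.04 ± 0.15, edgeR adjusted p = 0.00182). miR-133a-3p, from chromosome 2, fell by 0.54. These 3 were the calls among 9 tested muscle miRNAs, whose summed level was 1351 to 1532 CPM in WT and 1118 to 1226 CPM in R6/2. The part of muscle RNA in them was not tested.

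**Figure D2:**
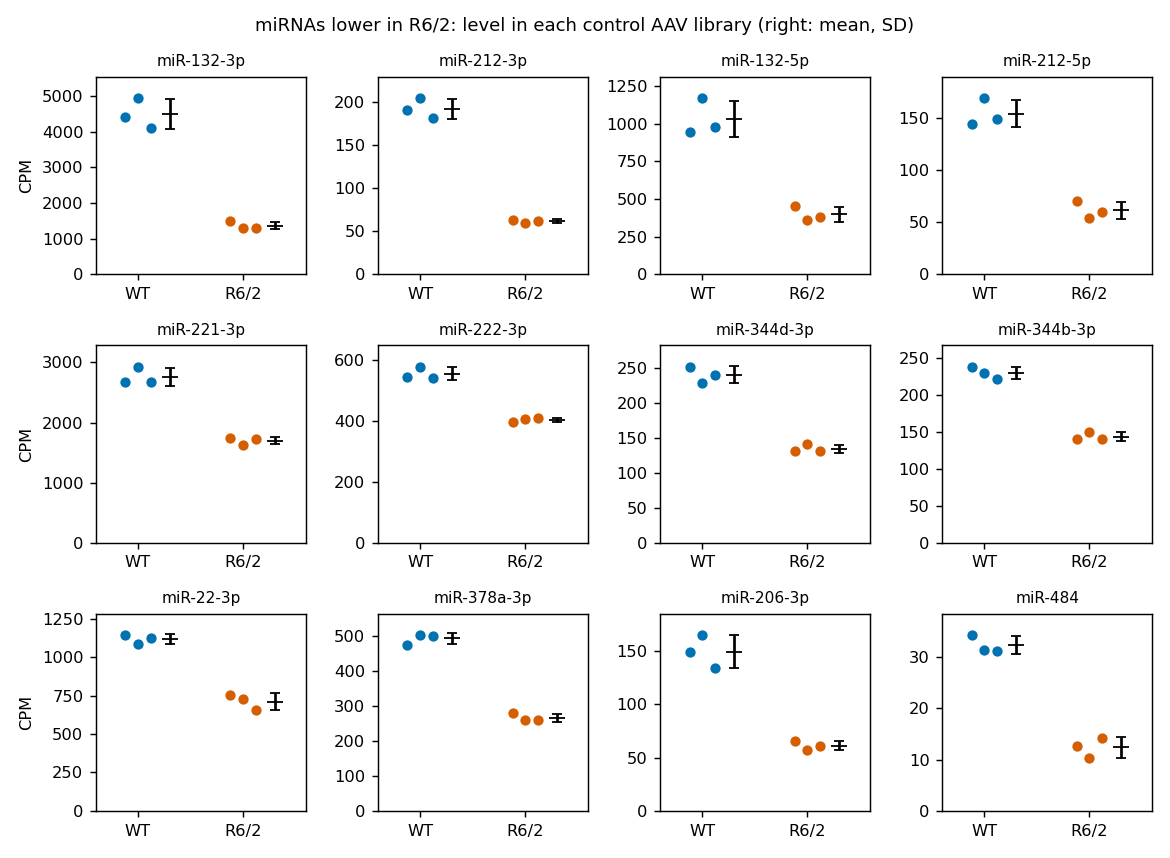
Each panel is 1 miRNA that fell, with its CPM in the 3 WT (blue) and 3 R6/2 (orange) libraries and the mean and SD (n = 3) to the right of each group, on axes that start at 0. In all 12 panels the 3 orange points lie below the 3 blue points, and for miR-132-3p the R6/2 points sit between 1301 and 1498 CPM.

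Lists of miRNAs from general knowledge are described by their counts. They were chosen with earlier results of these data known, so their counts are no independent support. The counts are to be read beside the 19.5% higher and 15.6% lower over all tested miRNAs. Of 18 tested miRNAs reported lower in striatum or cortex of Huntington's disease mouse models, 14 were lower and 1 higher, with a median log2 fold change of -0.47. The exceptions were miR-29c-3p, which rose (0.37 ± 0.05), and 3 that did not pass: miR-128-3p, at 71467 ± 2514 CPM in WT and 68680.0 ± 2522 CPM in R6/2 (-0.06 ± 0.04), miR-218-5p (0.03 ± 0.06) and miR-29c-5p (0.18 ± 0.08). miR-128-3p was called lower with total-count scaling (-0.129, edgeR adjusted p = 0.0142) and with limma, and miR-29c-5p higher with GC offsets (edgeR adjusted p = 0.0376). Of 25 tested miRNAs under REST, 13 were lower and 5 higher, with a median of -0.35. Among them miR-124-3p, the most neuron-specific miRNA, was at 6226, 6147 and 6145 CPM in WT and 5259.6, 4219.5 and 4115 CPM in R6/2, which are lower in all 3 (-0.45 ± 0.09, edgeR adjusted p = 0.00754). miR-9-5p, the most abundant miRNA of all and another REST target, went the other way, from 123540.0 ± 2985 to 140860.0 ± 6518 CPM (0.19 ± 0.04, edgeR adjusted p = 0.00703). The minor arm miR-124-5p did not pass, at 209.5 ± 7.43 CPM in WT and 210.3 ± 0.916 CPM in R6/2 (0.006 ± 0.065, edgeR adjusted p = 0.952). miR-139-5p (-0.40 ± 0.07) and miR-485-3p (-0.61 ± 0.09) fell, and miR-330-3p rose (0.53 ± 0.08). Of 24 activity-induced miRNAs 8 were lower, 4 of these from the miR-132 and miR-212 locus, and 4 were higher. Their median, -0.21, was -0.112 without R6/2 replicate 2, -0.048 without WT replicate 2, -0.1 without WT replicate 3 and -0.075 with a stricter filter. The 39 neuron-enriched miRNAs divided evenly, 9 higher and 9 lower, with a median of -0.06, and without R6/2 replicate 2 they held 11 calls in place of 18. Lists overlap, and miR-132 stands in 3 of these 4.

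The strongest rise came from 1 place, an intron of Sfmbt2 on chromosome 2, between 10466663 and 10518279 (GRCm38). Sfmbt2 encodes a Polycomb protein and is imprinted in mouse placenta, and the intron holds a rodent-specific array of hairpins of the families miR-297, miR-466, miR-467 and miR-669. All 47 tested miRNA names of the intron stood above 0 and 42 rose, with a median log2 fold change of 1.34 and a range of 0.66 to 2.47. A name could pass the expression filter through the R6/2 libraries alone, which at low level favours names that are higher there. miR-669c-5p, the most abundant, was at 82.0, 71.9 and 69.0 CPM in WT and at 291, 288 and 298 CPM in R6/2. Every R6/2 library was more than 3 times as high as every WT library, a 3.94-fold difference of the means (log2 fold change 1.98 ± 0.09, edgeR adjusted p = 1.38e-05).

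The other families of the intron rose as well, and the median of miR-466 was below that of miR-467. miR-467e-5p was at 36.1, 32.2 and 32.6 CPM in WT and 104, 96.9 and 99.9 CPM in R6/2, without overlap (1.58 ± 0.07, edgeR adjusted p = 1.38e-05). miR-467a-5p was at 6.80, 6.35 and 8.20 CPM in WT and 31.8, 33.9 and 29.8 CPM in R6/2 (2.16 ± 0.12). miR-466e-3p was at 21.4, 21.7 and 20.6 CPM in WT and 40.9, 40.4 and 41.7 CPM in R6/2 (0.95 ± 0.07). Here too each R6/2 library exceeded each WT library. All 9 tested miR-467 names rose (median 1.67), as did all 6 of miR-297 (1.601), 13 of 15 of miR-466 (1.07) and 14 of 17 of miR-669 (1.16). The 26 names of 5p arms had a median of 1.56 and the 19 of 3p arms a median of 1.03. The largest miR-466 value, a 5p arm at 2.47, was above the largest of miR-467, 2.16. The families were not compared arm by arm.

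These names are not independent. Many hairpins of the array are near-identical, and names whose values lie within 5% of each other in every library come down to 37 distinct profiles, of which 32 rose. miR-466b-3p, miR-466c-3p and miR-466p-3p had the same values, as had miR-669a-3p and miR-669o-3p, both at 50.9 ± 3.93 CPM in WT and 85.1 ± 3.20 CPM in R6/2. Levels were low: 26 of the 47 exceeded 1 CPM in the mean of WT and 9 exceeded 20 CPM. The list of these families, with members elsewhere in the genome, summed to 415 to 451 CPM in WT and 1087 to 1115 CPM in R6/2. Each name enters this sum, those with equal values included, so it overstates the level of the families. The R6/2 libraries stood apart from WT in it. Of its members outside the intron, miR-466k on chromosome 3 rose from 0.445 ± 0.253 to 2.24 ± 0.298 CPM (2.29 ± 0.36), while miR-466q, in an intron of Tnik on the same chromosome, stood at 1.55 ± 0.708 and 1.40 ± 0.960 CPM (-0.15 ± 0.53, edgeR adjusted p = 0.852). The mRNA of Sfmbt2 was not measured in these libraries.

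**Figure D3:**
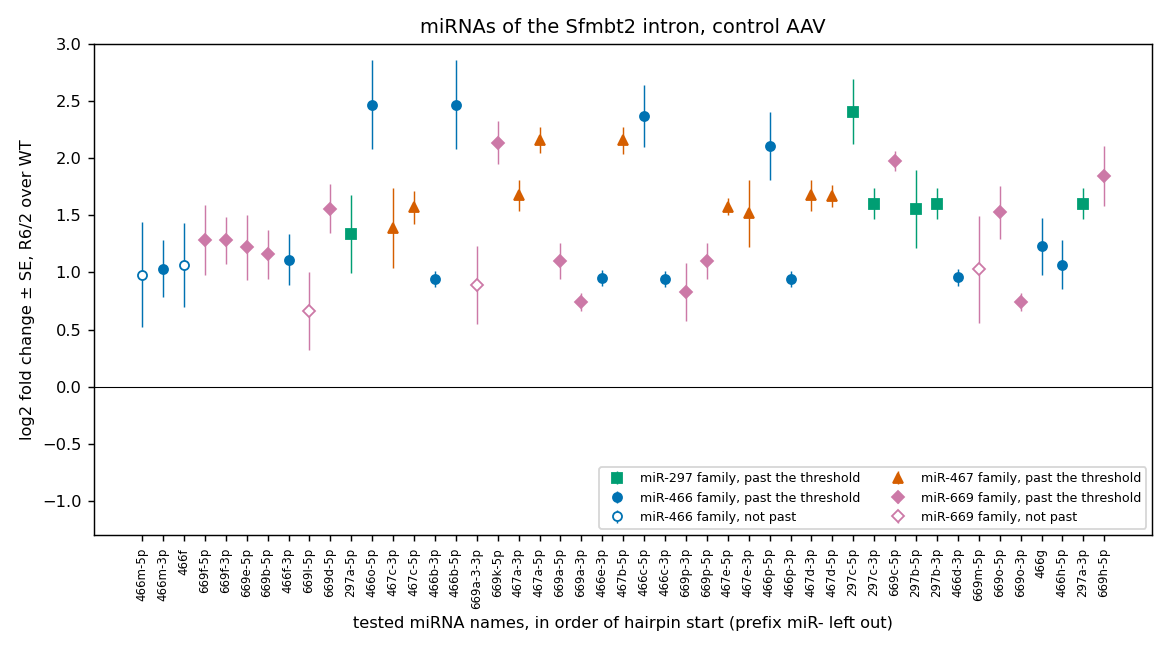
The log2 fold change of R6/2 over WT, with its SE, for the 47 tested miRNA names of the Sfmbt2 intron in the order of their hairpins. Filled symbols are the 42 that rose, open symbols the 5 that did not pass, and all 47 lie above 0.

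Outside the Sfmbt2 families the rises were smaller but fell on abundant miRNAs. miR-26b-5p, cut from an intron of the phosphatase gene Ctdsp1, was at 9939.9, 9563 and 9525 CPM in WT and 12894, 13081 and 12937 CPM in R6/2. The spread within each group was small beside the gap of the groups (log2 fold change 0.42 ± 0.04, edgeR adjusted p = 0.00015), and miR-26b-3p rose by 0.48, a call lost without R6/2 replicate 3, WT replicate 2 or WT replicate 3 (edgeR adjusted p = 0.0554, 0.0892 and 0.0585). miR-19b-3p, of the growth-promoting miR-17-92 cluster and its paralogue on chromosome X, was at 312, 282 and 335 CPM in WT and 528, 558 and 529.7 CPM in R6/2 (0.80 ± 0.08, edgeR adjusted p = 0.000341). miR-19a-3p, which differs from it at 1 of 23 bases, rose by 0.58. miR-345-5p (0.63 ± 0.07), miR-31-3p (0.62 ± 0.08) and miR-330-3p were further rises with small p. At low level, miR-1224-5p, from an intron of Vwa5b2, went from 1.72 ± 0.102 to 4.06 ± 0.180 CPM (1.24 ± 0.16, edgeR adjusted p = 0.000926).

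The miR-29 members, known as repressors of collagen and of proapoptotic BH3-only genes in neurons, were all above 0, and 4 of 7 arms rose. miR-29b-3p was at 17317, 16222 and 16370.0 CPM in WT and 21716, 24053 and 21965 CPM in R6/2. miR-29c-3p, from the same host RNA A330023F24Rik on chromosome 1, was at 19189, 18400.0 and 18046 CPM in WT and 23656, 25280.0 and 22978 CPM in R6/2. Both groups of libraries were apart, with log2 fold changes of 0.44 ± 0.05 and 0.37 ± 0.05 (edgeR adjusted p = 0.000638 and 0.00101). The minor arm miR-29b-2-5p of that locus rose by 0.64. miR-29a-3p, from chromosome 6, was at 67442 ± 1293 CPM in WT and 69319 ± 1739 CPM in R6/2, and its groups overlapped (0.04 ± 0.03, edgeR adjusted p = 0.354). miR-29b-3p is also cut from a second hairpin beside miR-29a, and its reads cannot be split between the 2 hairpins. The minor arm of that hairpin, miR-29b-1-5p, rose by 0.36 ± 0.10, and did not pass without any 1 of the 5 libraries other than WT replicate 1 (edgeR adjusted p = 0.0534 to 0.0831).

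Among families with 1 seed and at least 3 tested members with a RefSeq sequence, 5 of 14 had all members above 0 and 2 had all below 0. All 3 of miR-130a-3p (0.69 ± 0.12), miR-130b-3p (0.28 ± 0.09) and miR-301a-3p (0.37 ± 0.08) rose, from 3 chromosomes. miR-130a-3p was at 176.8, 189.1 and 212.1 CPM in WT and 261.9, 350.96 and 321.2 CPM in R6/2, which do not overlap. All 6 members with the seed AGCAGCA stood above 0 and 4 of them rose, led by miR-497a-5p, at 251.9, 221.8 and 213.2 CPM in WT and 409, 409 and 374 CPM in R6/2 (0.80 ± 0.09, edgeR adjusted p = 0.000484). Its neighbour miR-195a-5p rose by 0.41 ± 0.10 and the far more abundant miR-16-5p, a known brake on cyclins, by 0.13 ± 0.04. These groups were apart as well. Of the smaller rises, miR-195a-5p was not called without WT replicate 3 (edgeR adjusted p = 0.0507). miR-130b-3p was not called with DESeq2, DESeq2 size factors, total-count scaling, limma or no filter (adjusted p = 0.0574 to 0.154), nor without R6/2 replicate 2 or 3 or WT replicate 1 or 2 (edgeR adjusted p = 0.101 to 0.119), and miR-16-5p was called with 1 library out only where that was WT replicate 2 (0.0609 to 0.144 otherwise). miR-16-5p also missed the threshold under those same alternatives and with a stricter filter (adjusted p = 0.0617 to 0.456).

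Of the 10 tested let-7 and miR-98 names with the seed GAGGUAG, which rise as neurons mature, 8 stood above 0 and 5 rose, all by little. let-7f-5p was at 44386, 43157 and 42793 CPM in WT and 51257, 50278 and 49514 CPM in R6/2 (0.21 ± 0.03, edgeR adjusted p = 0.00183). The groups were apart. Across the family, some calls of small shifts rest on the scaling. Over the 21 tested arms of let-7a to let-7g, let-7i and miR-98, 10 rose, and 6 did when libraries were scaled by total count alone. The number was also 5 without R6/2 replicate 2 and 6 without WT replicate 2 or WT replicate 3. With names of near-equal values taken as 1, the 21 arms come down to 20 distinct profiles, of which 9 rose. Outside these 21 arms let-7j, whose seed ends differently, fell (-0.21 ± 0.05, edgeR adjusted p = 0.0165). Also outside them let-7k, 1 of the 10 names with the seed GAGGUAG, did not pass (-0.49 ± 0.37). No member of the seeds of miR-99 and miR-100 or of miR-200b, miR-200c and miR-429 stood above 0, and 1 of each fell.

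**Figure D4:**
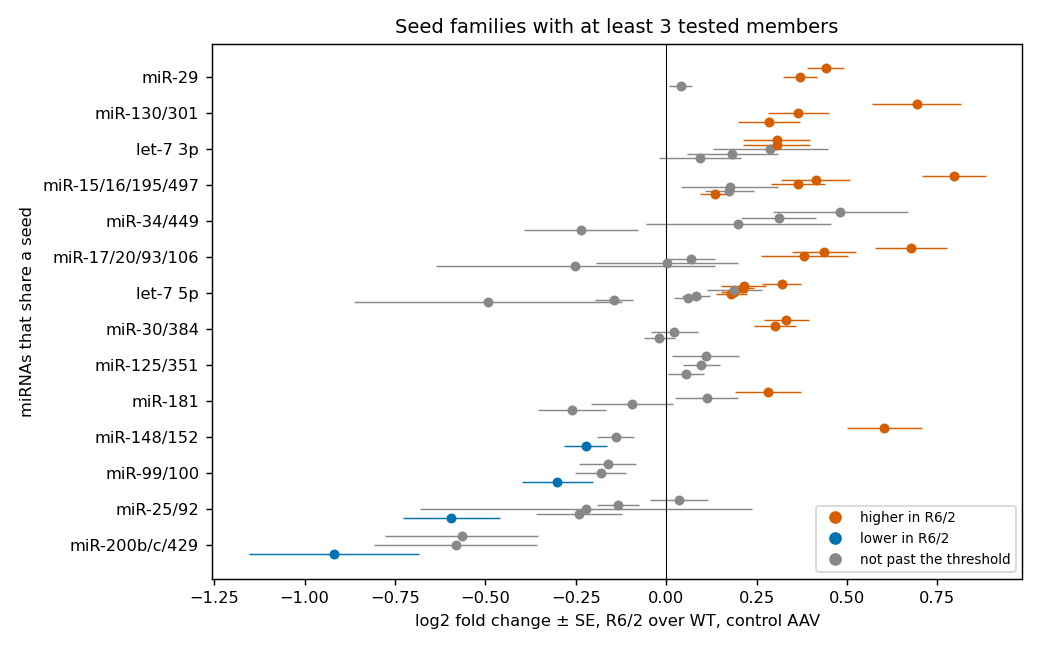
The log2 fold change of R6/2 over WT, with its SE, for 62 miRNAs in 14 groups that share bases 2 to 8, ordered by the group's median. Orange points rose, blue points fell and grey points did not pass, and the group of miR-130 and miR-301 is the only one with every member past the threshold, which miR-130b-3p did not pass under several alternatives.

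Genomic neighbours moved together in some places and not in others. The imprinted Dlk1-Dio3 region of chromosome 12, a large array of miRNAs expressed from the maternal allele, had 17 higher and 20 lower calls among 88 tested members and a median of 0.03. Its first stretch, 109563692 to 109595388, held 6 higher and 1 lower of 20 tested (median 0.13), and the second, 109709060 to 109747960, held 11 higher and 18 lower of 66 (median -0.08). The median of the whole list changed sign with the scaling and without some libraries, so that no direction can be given for it. miR-127-3p, known from the first stretch for silencing Rtl1, was at 10755, 11357 and 10619 CPM in WT and 13842, 13827 and 14295 CPM in R6/2. It was higher in all 3 R6/2 libraries (0.36 ± 0.04, edgeR adjusted p = 0.000639). In the second stretch miR-376b-5p was at 1821, 1779.9 and 1724 CPM in WT and 2894, 3461 and 2899 CPM in R6/2 (0.80 ± 0.08, edgeR adjusted p = 0.000321), and miR-679-5p went from 4.08 ± 0.549 to 9.29 ± 0.277 CPM (1.19 ± 0.14). Their neighbour miR-487b-3p was at 315, 308 and 311 CPM in WT and 217, 198 and 225 CPM in R6/2, in the opposite direction and also without overlap (-0.54 ± 0.07, edgeR adjusted p = 0.0015). miR-411-3p (-0.68 ± 0.10), miR-485-3p and miR-409-3p (-0.52 ± 0.09) fell beside it.

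The 2 arms of a hairpin come from 1 transcript. A mature name with several precursors was kept under 1 of them, as miR-29b-3p was under miR-29b-2. Some pairs counted here may therefore hold reads of another hairpin. Of 225 hairpins with both arms tested, both arms were called for 45: 30 rose together, 13 of them in the Sfmbt2 families, 14 fell together and 1 parted. The 13 are not all separate results, since hairpins of that array share arm values. The 3p arms of the miR-466b-1, miR-466c-1 and miR-466p hairpins, for example, all had a log2 fold change of 0.946. Over all 225 the arms had the same sign in 149 (66.2%). The hairpins that fell in both arms included miR-138-1, miR-139, miR-674, miR-92b, miR-369 and miR-409 beside those described above, and those that rose included miR-26b, miR-30e, miR-126a, miR-195a, miR-497a and miR-376b. The exception was miR-106b, in an intron of Mcm7. Its 5p arm was at 16.35, 17.02 and 19.70 CPM in WT and 25.36, 23.84 and 19.96 CPM in R6/2 (0.38 ± 0.12, edgeR adjusted p = 0.0426), while its 3p arm was at 61.2, 64.1 and 67.1 CPM and 52.2, 45.5 and 52.3 CPM (-0.36 ± 0.08, edgeR adjusted p = 0.0114). Neither arm overlapped between groups, although the highest WT and lowest R6/2 value of the 5p arm were close.

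Markers of other cell types were examined because a shift in cell makeup would move them. Of 15 tested vascular markers 8 rose and none fell, beside 19.5% higher over all tested miRNAs, with a median of 0.48 and a summed level of 31087 to 31961 CPM in WT and 36725 to 39759 CPM in R6/2, though 5 rather than 8 were called without WT replicate 2. miR-126a-5p, the endothelial miRNA of the Egfl7 locus, was at 6498, 6064 and 6084 CPM in WT and 8710.4, 9105 and 8350.1 CPM in R6/2, clear of each other (0.49 ± 0.05, edgeR adjusted p = 0.00039). Its partner arm miR-126a-3p rose by 0.24, and miR-195a and miR-497a, described above, gave 4 of the 8 calls. miR-126a-3p, at 18574 CPM in WT and 21989 CPM in R6/2, made up most of the summed level. Of the 7 not called, miR-143-3p was at 5345 ± 245.3 CPM in WT and 5559.5 ± 371.8 CPM in R6/2 (0.06 ± 0.06, edgeR adjusted p = 0.516). The 1 member below 0 was miR-10a-5p (-1.02 ± 0.47). The part of vessel content in the rise of these miRNAs was not tested.

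Markers of microglia and inflammation varied from library to library within both genotypes, and 11 of 12 tested stood below 0. Their median was -0.46, but -0.175 without WT replicate 3, -0.226 without R6/2 replicate 1, -0.711 without WT replicate 1 and -0.821 without R6/2 replicate 3. Their summed level was 12601 to 24789 CPM in WT and 7524 to 16551 CPM in R6/2, and 1 fell, miR-146b-5p (-0.36 ± 0.09). miR-21a-5p was at 4951, 6084 and 8869.7 CPM in WT and 2762, 3595 and 5131 CPM in R6/2, and miR-142a-3p was at 1274, 2337 and 3775 CPM and 808, 1432 and 2494 CPM. These ranges overlapped, and neither miR-21a-5p (-0.79 ± 0.27, edgeR adjusted p = 0.0538) nor miR-142a-3p (-0.64 ± 0.47, edgeR adjusted p = 0.323) passed. miR-21a-5p did pass without R6/2 replicate 3 (-1.06) or WT replicate 1 (-0.97), and also with total-count scaling, limma, GC offsets or no filter (adjusted p = 0.028 to 0.0476). With the replicate number as a block, miR-21a-5p and miR-142a-3p both passed (edgeR adjusted p = 2.09e-05 and 0.000145), and the list held 6 calls. The labels do not say whether the numbers pair the samples. miR-146b-5p did not pass without R6/2 replicate 2 or 3 or WT replicate 2 or 3 (edgeR adjusted p = 0.0548 to 0.0731).

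Choroid plexus and ependyma markers set R6/2 replicate 2 apart. Their summed level was 2305 to 2649 CPM in WT and 2225 to 9453 CPM in R6/2. miR-204-5p was at 901, 5016 and 1053 CPM in the R6/2 libraries against 926 to 1131 CPM in WT, and miR-448-3p, from an intron of Htr2c, was at 34.0, 348 and 47.4 CPM against 28.6 to 43.4 CPM. In both the second R6/2 library alone was high. Of 17 tested, 2 were called, miR-448-5p (0.56 ± 0.17) and miR-1264-5p (0.96 ± 0.26), and the median was 0.54. Without R6/2 replicate 2 the median was -0.12 and neither passed (edgeR adjusted p = 0.0807 and 0.0568). Each also missed the threshold without WT replicate 2 or 3, and miR-448-5p without R6/2 replicate 3 or WT replicate 1, with adjusted p from 0.073 to 0.138. miR-448-3p passed only without R6/2 replicate 1 (2.36). Without R6/2 replicate 2, 189 of all miRNAs were called, 105 higher and 84 lower, sharing 181 with the 232.

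The remaining marker lists held 0 to 2 calls each. Of 5 tested oligodendrocyte miRNAs 1 minor arm of miR-219a fell, at about 1 CPM in WT, and the list held no call without R6/2 replicate 2, R6/2 replicate 3 or WT replicate 2, with GC offsets or with a stricter filter. There miR-338-3p did not pass (0.19 ± 0.07, edgeR adjusted p = 0.0833; 0.0075 without WT replicate 1), and the list median was -0.04. Of 7 astrocyte miRNAs, which are weak markers, miR-31-3p rose and 5 stood below 0 (list median -0.35). That median was -0.766 without R6/2 replicate 3, -0.598 without WT replicate 1, -0.109 without R6/2 replicate 1 and -0.047 without WT replicate 3. Of 5 erythroid names the 2 of miR-486, which have 1 profile, fell, calls kept only without R6/2 replicate 1 or WT replicate 3 when 1 library was left out. The erythroid median, -0.06, ran from -0.463 without R6/2 replicate 1 to 0.196 without R6/2 replicate 3. Of the epithelial and olfactory miRNAs 7 of 9 stood below 0 and 1 fell, miR-200c-3p (-0.92 ± 0.24), which did not pass without R6/2 replicate 2 or 3 or WT replicate 2 or 3 (edgeR adjusted p = 0.0606 to 0.0684). Their median was -0.36, and it was -0.563 without WT replicate 1 and -0.149 without WT replicate 3. None of the 2 tested Hox miRNAs passed (median -0.03). The muscle list had a median of -0.45, the miR-29 family one of 0.36 over 7 arms with 4 rises, and the list of the Sfmbt2 families one of 1.31 over 50 names with 44 rises.

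Base composition moved with the direction of change. The median GC content of the mature sequence was 43.5% for 79 higher miRNAs, 52.2% for 85 lower ones and 47.6% for 376 not called, where RefSeq gave a sequence, and the log2 fold change had a Spearman rho of -0.21 with GC content over these 540. With each library's GC trend taken out as an offset, the rho was -0.01 and 236 miRNAs were called, 139 higher and 97 lower. They shared 208 with the 232.

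The other 6 libraries of the series, with shTRAX in place of the control hairpin, give the same contrast in samples that the 6-library fit did not use. They share the deposited tables, and hence any difference between tables. There edgeR called 2 of 650 miRNAs (0.308%), miR-669c-5p, which rose, and miR-212-3p, which fell. Of the 232 calls, 224 were tested there and 162 had the same sign (72.3%), against 388 of all 635 tested in both (61.1%) and 226 of the 411 not called. miR-212-3p had a log2 fold change of -1.64 ± 0.19 there, miR-132-3p one of -1.50 ± 0.23, miR-221-3p -0.68 ± 0.16, miR-344b-3p -0.81 ± 0.16 and miR-669c-5p 1.90 ± 0.17. miR-187-5p stood on the other side, at 0.21 ± 0.65, and so did miR-29b-3p, at -0.11 ± 0.31.

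One library, replicate 3 of R6/2 with shTRAX, differed from the rest of its group, with 60.8% of its counts in its 10 most abundant miRNAs against 55.1% in both others. Without it, 214 of 228 calls had the same sign (93.9%), against 76.7% of all 648, and 39 of them were called there too. Leaving out any other 1 of the 6 left no call there, so that miR-669c-5p and miR-212-3p did not pass either, and 143 to 175 of the calls had the same sign. Whether the genotype difference itself changed with the virus was tested as an interaction over all 12 libraries. edgeR called 0 of 689 miRNAs, with a smallest adjusted p of 0.455. Before adjustment 61 had a p under 0.05, and DESeq2 also called 0. A p that misses the threshold does not show that the differences were equal.

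**Figure D5:**
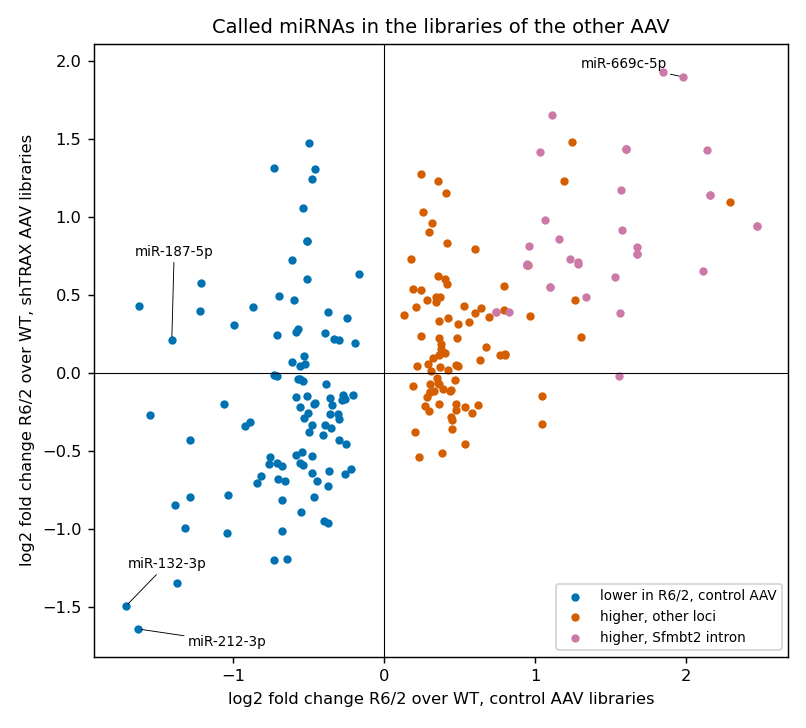
Each point is 1 of the 224 miRNAs called under control AAV and tested in the shTRAX libraries, with the log2 fold change of R6/2 over WT under control AAV on the horizontal axis and under shTRAX on the vertical axis. Of the 124 higher calls 93 lie above the horizontal line, and of the 100 lower calls 69 lie below it.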

How the data were processed

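Small RNA was sequenced from mouse striatum with the QIAseq miRNA kit, which adds molecular identifiers, per the labels' protocols. RNA came from TRIzol or a column kit, and which was used for which sample is not given. The submitters' processing notes name bcl2fastq 2.20, Trimmomatic and, as the genome build, GRCm38. How reads were aligned and counted, and whether the molecular identifiers were used, is not given in the sources used here. Raw counts and RPM values were deposited by the authors for 2059 pairs of mature name and precursor, per the file headers, in a table per genotype. RPM, which the authors scaled to the column total, differed from count over total by at most 0.118.

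Tables were joined on mature name and precursor, and the 81 names with several precursors were each represented by their row of highest mean. The 6 libraries' counts went into edgeR (4.0.16, under R 4.3.3). TMM scaling, the filterByExpr minimum of 10 counts and the quasi-likelihood test without a block were used, and p-values were adjusted by Benjamini-Hochberg over all tested miRNAs, with a threshold of 0.05. The 12-library fit was kept as an alternative because it rested on 1 library of neither group. CPM is the count over the TMM-scaled library total, and log2 fold changes are given ± SE. Alternatives used DESeq2 1.42.0 and limma 3.58.1 on log2(RPM + 1) and log2(RPM + 0.1), other scalings, filters and precursor rows, GC offsets, a replicate block and each library left out. Precision covers counting error and the spread of 3 libraries only. Hairpin positions and hosts come from GENCODE M21 (GRCm38; 633 of 660 tested miRNAs found) and mature sequences from RefSeq (GRCm38; 540 of 660). On simulated counts for this comparison, 657 miRNAs were tested, 41.8% of 98 changes of 0.5 and 97% of 99 changes of 1 on the log2 scale were recovered, and 12 of 149 calls were false. The simulation gave every miRNA the same dispersion and held no GC trend or outlying library. These rates may therefore not hold for the data.

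miRNAs were named by a rule: up to 15 higher, 15 lower and 15 further higher ones outside the Sfmbt2 list by smallest p, the miR-132 and miR-212 arms, up to 4 members of each of 20 lists, the 10 most abundant miRNAs, and hairpins with both arms called. miR-124-3p, miR-124-5p, miR-378b, miR-378d, miR-130a-3p, miR-130b-3p, miR-19a-3p, miR-187-3p, miR-29c-5p, miR-142a-3p, miR-204-5p, miR-448-3p, miR-466k, miR-466q, let-7d-5p, let-7j and let-7k were added with their values in view. miR-107-3p, miR-127-5p and miR-143-3p were added in the same way. The members and lists were chosen with earlier results of these data known. The other 6 libraries served for the contrast under shTRAX, the interaction and the fits over 12 or 11 libraries.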

Additional observations from a re-analysis of the deposited data

How the results depend on the processing

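The count of 232 changed miRNAs became 73 in the fit over all 12 libraries, which takes the spread from all 4 groups, and 210 with R6/2 shTRAX replicate 3 left out of that fit; of the 73, 71 were among the 232. Leaving out 1 control library gave 180 to 228 calls, and the other alternatives gave 208 to 251. With the replicate number as a block the count was 251, with 218 shared. Same-numbered libraries had correlations of 0.226, -0.14 and 0.141 over the tested miRNAs, and the other R6/2 and WT pairs ran from -0.333 to 0.219. These values show no pairing by number but cannot exclude one, and the labels do not give one. The block raised the microglia calls from 1 to 6, miR-21a-5p (adjusted p = 2.09e-05) and miR-142a-3p (0.000145) among them; it also called miR-338-3p (0.0436) and not miR-130b-3p (0.0528). The number of calls with the same sign under shTRAX, 162, was 159 with total-count scaling and ran from 143 to 214 with 1 shTRAX library left out. The interaction count stayed at 0 in every alternative run, the block and each library left out included. Of the 72 called miRNAs named here, 61 kept direction and call in every alternative other than the 12-library fit, and 32 in that fit too. DESeq2 did not call miR-9-5p (0.0765), miR-26b-3p (0.0585) or miR-29b-1-5p (0.117), limma did not call the last of these, miR-26b-3p or miR-448-5p (0.0539 to 0.0786), and it called miR-187-3p (0.0361).

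A few values that were not called changed sign. The median of the Dlk1-Dio3 list, 0.03, was -0.041 with total-count scaling, -0.063 and -0.065 with limma on log2(RPM + 1) and log2(RPM + 0.1) and -0.027 with a stricter filter, and ran from -0.067 to 0.026 with 1 library left out. In the same order, total-count scaling and both limma fits gave -0.038, -0.053 and -0.053 for miR-218-5p and -0.032, -0.047 and -0.047 for miR-29a-3p, with -0.048 and -0.018 under GC offsets. Neither passed. With 1 library left out, miR-218-5p ran from -0.011 to 0.0904, miR-204-5p from -0.116 to 1.49 and miR-466q from -0.82 to 0.23. The choroid plexus median, 0.54, then ran from -0.116 (without R6/2 control replicate 2) to 0.805, and the Hox median, -0.03, from -0.296 to 0.62, from 2 miRNAs. The cause was not tested.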
